A study of Mus musculus with 6 samples.

Results

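Apoe, the gene for the lipid carrier apolipoprotein E, was described in cultured mouse embryonic fibroblasts (MEFs) together with 7 genes of cholesterol and fatty acid metabolism, Abca1, Sqle, Fdft1, Cyp51, Srebf1, Scd1 and Fasn. These 8 genes were taken by name from the 38483 genes of the count table. They were chosen by values of the contrast described here: edgeR's quasi-likelihood test of Nipbl+/- against WT cultures gave Apoe an adjusted p of 0.0468, and the lipid genes were set beside it with that result known. The values of the 8 genes in this contrast are therefore a description, and no test of them is read. Of the 8, 7 had counts. Sqle, which encodes squalene epoxidase, lies on the plus strand, and the table gives 0 counts and an RPKM of 0 in every culture for it, as for each of the 19214 plus-strand genes, so no level of Sqle can be given.

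RNA depleted of ribosomal RNA was sequenced from 3 WT and 3 Nipbl+/- cultures. All were MEFs of CD1 mice at passage 3, and the only difference the labels give between the groups is genotype, wild type or NIPBL-haploinsufficient. Nipbl encodes the protein that loads the cohesin ring onto chromatin, and the study used these cells as a model of Cornelia de Lange syndrome, in which 1 copy of the human gene is often lost or mutated. By the study's methods the MEFs came from E14.5 littermates of a single pregnant mouse after limbs, brain and internal organs were removed, a preparation that holds mixed cell types. The p-values measure the spread between these cultures.

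Total counts lay between 20307454 and 25990783 per culture, and 9061 genes passed the filter on low counts and were tested. Nipbl itself, at chr15:8291225-8444463 of mm10, was at 128, 145 and 135 CPM (read counts scaled to library size with edgeR's TMM factors) in the WT cultures and at 101, 101 and 100.3 CPM in the Nipbl+/- cultures (log2 fold change −0.43, SE 0.06, adjusted p = 0.0213 by edgeR's quasi-likelihood test). Of the 9061 genes, 1.95% passed the adjusted threshold of 0.05, 1.04% as higher and 0.916% as lower in Nipbl+/- cultures. Of 11 fibroblast markers, 10 are plus-strand genes listed at 0, and the remaining one, fibronectin gene Fn1, was at 14360 to 18188 CPM. Ddx3y of the Y chromosome was counted above Xist, the RNA of the inactive X, in WT replicates 1 and 2 and in Nipbl+/- replicate 3, and below it in the other 3 cultures, so both sexes were present in both groups.

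Cells make cholesterol from acetyl-CoA through the mevalonate and sterol pathway, in which squalene synthase (Fdft1), squalene epoxidase (Sqle) and lanosterol demethylase (Cyp51) act in order. Fatty acids are built by fatty acid synthase (Fasn) and desaturated by stearoyl-CoA desaturase (Scd1). When membrane sterol is low, the SREBP transcription factors, one of which is encoded by Srebf1, switch on the genes of both pathways. When sterol is high, oxidised sterols activate the LXR receptors, which switch on Abca1, the transporter that moves cholesterol out of the cell, and also Srebf1 and, in macrophages and fat tissue, Apoe, whose protein takes up the exported lipid.

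Promoter sequence was taken from RefSeq (GRCm38.p6) for the 5 members with an entry, since members of one pathway can share control elements. Apoe and Srebf1 have 3 annotated starts each, so the 5 genes have 9 windows of 250 bases upstream of a start. Printed here, 5′ to 3′ on the minus strand that carries the genes, are the windows of Apoe (chr7:19699189-19699438), Abca1 (chr4:53159896-53160145), Fasn (chr11:120824548-120824797), Cyp51 (chr5:4104698-4104947) and the innermost start of Srebf1 (chr11:60210472-60210721). Capitals mark the searched motifs on either strand.
Apoe: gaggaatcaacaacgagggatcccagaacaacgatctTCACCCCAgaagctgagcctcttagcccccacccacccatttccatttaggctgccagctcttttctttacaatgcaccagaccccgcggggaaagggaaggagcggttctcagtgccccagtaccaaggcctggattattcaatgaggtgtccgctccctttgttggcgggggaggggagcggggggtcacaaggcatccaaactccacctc
Abca1: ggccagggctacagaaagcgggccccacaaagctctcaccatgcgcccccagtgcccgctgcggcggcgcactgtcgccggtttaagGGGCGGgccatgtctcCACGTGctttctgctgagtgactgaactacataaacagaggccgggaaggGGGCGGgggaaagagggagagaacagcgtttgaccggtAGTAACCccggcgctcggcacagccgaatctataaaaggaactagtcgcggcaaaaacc
Fasn: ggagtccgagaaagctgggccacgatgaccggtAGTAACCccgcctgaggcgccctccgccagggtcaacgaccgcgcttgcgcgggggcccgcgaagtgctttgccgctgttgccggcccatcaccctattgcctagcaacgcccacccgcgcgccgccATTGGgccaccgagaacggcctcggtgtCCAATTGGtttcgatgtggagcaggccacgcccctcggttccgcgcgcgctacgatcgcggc
Cyp51: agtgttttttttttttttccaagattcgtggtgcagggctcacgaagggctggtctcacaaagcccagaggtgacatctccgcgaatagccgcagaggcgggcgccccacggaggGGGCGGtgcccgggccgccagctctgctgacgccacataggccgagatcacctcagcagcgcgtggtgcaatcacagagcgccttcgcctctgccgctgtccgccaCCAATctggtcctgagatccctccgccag
Srebf1: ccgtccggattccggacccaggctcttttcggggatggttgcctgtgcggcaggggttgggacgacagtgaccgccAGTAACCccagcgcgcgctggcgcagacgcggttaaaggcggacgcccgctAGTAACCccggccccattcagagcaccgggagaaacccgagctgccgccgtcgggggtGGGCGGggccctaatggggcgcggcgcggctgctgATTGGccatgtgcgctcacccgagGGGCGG

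The sterol regulatory element bound by SREBP was searched as TCACNCCAC, which is in 1.05% of all 32851 RefSeq windows of this length and in none of the 9 member windows, and in the shorter form TCACNCCA, which is in 3.67% of all windows. The Apoe window printed holds 1 match to the shorter form, TCACCCCA, 213 to 206 bases upstream of the start, and the other 8 member windows hold none. GGTTACT, a half-site of the LXR response element, was searched after the windows had been read and is in 1.88% of all windows. Its reverse complement AGTAACC was found in 4 of the 9 windows. These were the Abca1 window, 59 to 53 bases upstream, the Fasn window, 217 to 211 bases upstream, the Srebf1 window printed, at 174 and 123 bases upstream, and a second Apoe window with a match starting 62 bases upstream of its start. CCAAT, the NF-Y box that often lies beside sterol elements, was in 4 of the 9 windows and in 33.8% of all. In the Fasn window its 2 matches at 62 and 59 bases upstream, on opposite strands, overlap. GGGCGG, the Sp1 box, was in 4 of the 9 and 32.7% of all, and CACGTG, the E-box, in 1 of the 9, that of Abca1, and 6.02% of all. AGGTCA, the general nuclear receptor motif, was in none of the 9 and in 14.0% of all windows. A match is a match of letters, and binding was not measured. The full LXR element was not searched, so the matches to its half-site need not be alike beyond these letters.

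Apoe (ENSMUSG00000002985) lies on the minus strand at chr7:19696109-19699166 of mm10. It was at 23.2, 20.2 and 11.9 CPM in the 3 WT cultures (512, 454 and 257 counts) and at 38.9, 59.2 and 37.0 CPM in the 3 Nipbl+/- cultures (863, 1549 and 775 counts). The groups did not overlap: the lowest Nipbl+/- culture, replicate 3, was above the highest WT culture, replicate 1. WT replicate 3 was the lowest of the 6 cultures and Nipbl+/- replicate 2 the highest. The means were 18.5 ± 5.85 CPM in WT cultures and 45.0 ± 12.3 CPM in Nipbl+/- cultures (SD, n = 3 each), a fold of 2.44 (log2 fold change 1.29, SE 0.25), which ranks 27 of the 9061 tested genes from the highest. Without Nipbl+/- replicate 2 the log2 fold change was 1.04, and without WT replicate 3 it was 1.06. The adjusted p that chose Apoe passed the threshold only with all 6 cultures. With any 1 left out, edgeR's quasi-likelihood test gave 0.0575 to 0.119, over the threshold in 6 of 6 fits. Among the cultures with more Ddx3y than Xist, the Nipbl+/- culture had 37.0 CPM of Apoe and the WT cultures 23.2 and 20.2 CPM. Among those with more Xist, the Nipbl+/- cultures had 38.9 and 59.2 CPM and the WT culture 11.9 CPM. As the groups did not overlap, the Nipbl+/- values had to be higher in any such split. The part of sex in the Apoe values was not tested.

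Abca1 (ENSMUSG00000015243, chr4:53030787-53159895), the efflux transporter that passes cholesterol to apolipoproteins, was at 71.6, 57.5 and 87.4 CPM in WT cultures and at 72.2, 77.1 and 75.2 CPM in Nipbl+/- cultures. The Nipbl+/- cultures lay inside the range of the WT cultures. The means were 72.2 ± 15.0 and 74.8 ± 2.46 CPM (log2 fold change 0.05, SE 0.13), and the sign of the difference turned without WT replicate 2 (−0.09). Read per gene length, the RPKM of Apoe over that of Abca1 was 1.70, 1.84 and 0.714 in the WT cultures and 2.82, 4.02 and 2.58 in the Nipbl+/- cultures. The lipid carrier thus stood higher against the transporter in each Nipbl+/- culture than in any WT culture, which follows from the Apoe values.

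Srebf1 (ENSMUSG00000020538, chr11:60199089-60222581), the gene of the SREBP-1 factors, was at 71.6, 70.6 and 89.0 CPM in WT cultures and at 75.5, 78.5 and 91.0 CPM in Nipbl+/- cultures. The ranges overlapped, with replicate 3 the highest culture in both groups. The log2 fold change was 0.08 (SE 0.10), and it was −0.00060 without Nipbl+/- replicate 3. Of its 5634 exonic bases in GENCODE M21, 1.93% are shared with Rai1 on the other strand, and the library kit is not stated to mark strand.

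For cholesterol synthesis, Fdft1 (ENSMUSG00000021273, chr14:63145153-63177793), which joins farnesyl units into squalene, was at 129, 145 and 122 CPM in WT cultures and at 141, 135 and 146 CPM in Nipbl+/- cultures. Those ranges overlapped, and the Nipbl+/- culture was the higher one in 7 of the 9 possible pairings with a WT culture (log2 fold change 0.09, SE 0.07). Its exons share 774 of 4227 bases (18.3%) with those of Ctsb on the plus strand, so reads of the pair may not be told apart. Cyp51 (ENSMUSG00000001467, chr5:4081145-4104746), which removes a methyl group from lanosterol, was at 216, 272 and 261 CPM in WT cultures and at 303, 273 and 289 CPM in Nipbl+/- cultures. Its groups did not overlap, but Nipbl+/- replicate 2 and WT replicate 2 were nearly level. The Cyp51 means were 249.6 ± 29.6 and 288.4 ± 14.6 CPM (log2 fold change 0.21, SE 0.09).

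For fatty acids, Fasn (ENSMUSG00000025153, chr11:120805940-120824178) was the most counted member, at 642, 569.7 and 588 CPM in WT cultures and at 669.5, 657 and 671 CPM in Nipbl+/- cultures. Every Nipbl+/- culture was above every WT culture, with a step of about the WT spread (means 600.0 ± 37.7 and 665.8 ± 7.65 CPM, log2 fold change 0.15, SE 0.05). Scd1 (ENSMUSG00000037071, chr19:44394451-44407709) was at 247, 274 and 270.2 CPM in WT cultures and at 291, 279.8 and 298 CPM in Nipbl+/- cultures. The groups again did not overlap, and the log2 fold change was 0.14 (SE 0.06).

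Across the 7 counted members the log2 fold change was above 0 in each, but Apoe stood apart in size. The other 6 lay between 0.05 and 0.21 with a median of 0.11, while the median over all 9061 tested genes was −0.01 and the middle of their distribution, from the 5th to the 95th percentile, ran from −0.50 to 0.41. In 4 of the 7 (Apoe, Cyp51, Fasn and Scd1) all Nipbl+/- cultures were above all WT cultures, a pattern found in 12.0% of the tested genes, and none of the 7 had the opposite pattern, which 10.8% of the tested genes had. Past the adjusted threshold was 1 of the 7, Apoe, whose value chose the group. Since the members were chosen on this contrast, nothing is read from these shares. The fold between groups was 1.04 for the efflux gene Abca1, 1.06 to 1.16 for the synthesis and control genes and 2.44 for Apoe.

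**Figure D1:**
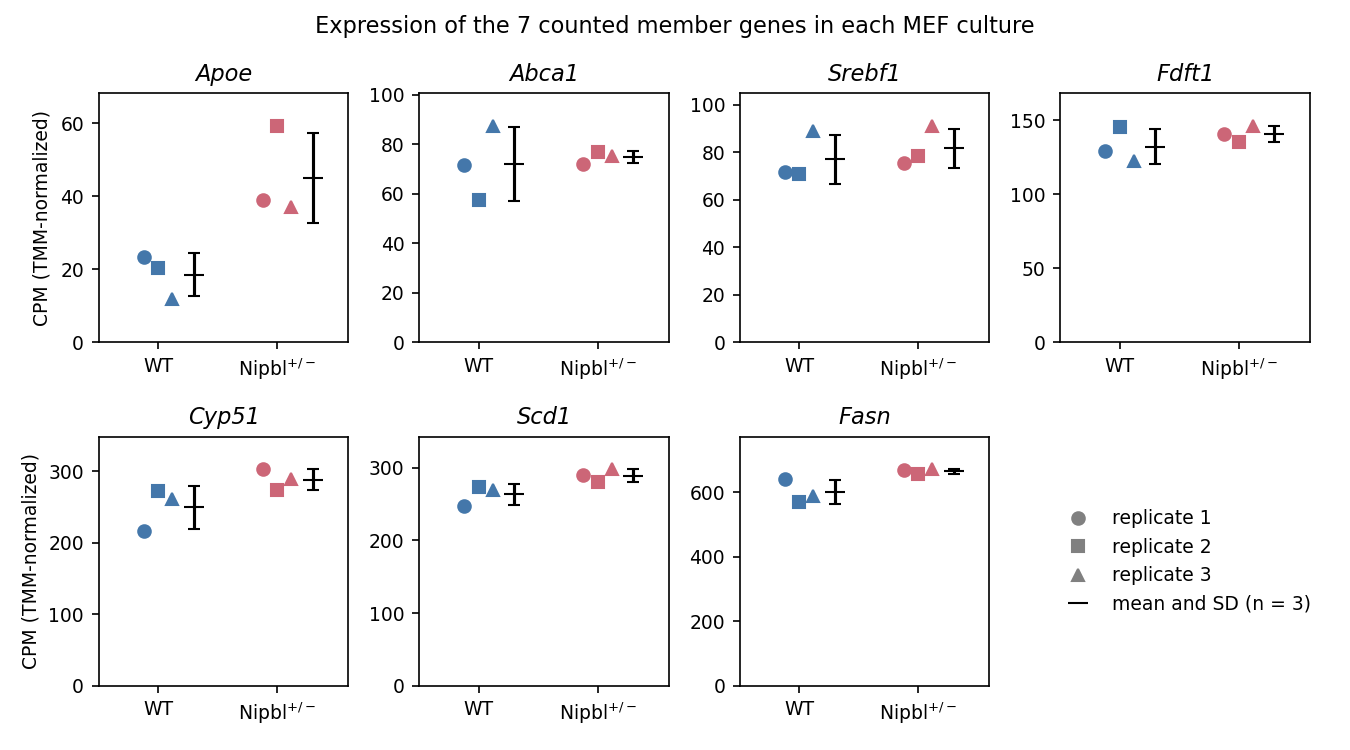
Level of each of the 7 counted members in every culture, in TMM-normalized CPM on axes that start at 0 (points, with the marker showing the replicate number), with the mean and SD of each genotype (n = 3). The Apoe points are separated by genotype with a fold of 2.44 between means, while Abca1, Srebf1 and Fdft1 overlap and Cyp51, Scd1 and Fasn are shifted by folds of 1.10 to 1.16.

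Read per gene length, as the deposited RPKM, the synthesis enzymes stood highest. The mean over the 6 cultures was 62.1 RPKM for Fasn, 60.7 for Cyp51, 55.3 for Scd1 and 46.1 for Fdft1, followed by 15.6 for Apoe, 13.6 for Srebf1 and 6.86 for Abca1. Fasn and Cyp51 were not separated, with Fasn the higher in 3 of the 6 cultures, and Cyp51 was above Scd1 in 5 of 6. Scd1 was above Fdft1, Fdft1 above Apoe and Srebf1 above Abca1 in 6 of 6. Apoe and Srebf1 changed places with genotype: Apoe had the lower RPKM of the pair in the 3 WT cultures and the higher in the 3 Nipbl+/- cultures. Mean Apoe RPKM was 8.83 ± 2.64 in WT cultures and 22.3 ± 5.96 in Nipbl+/- cultures (SD, n = 3), and its ratio to the RPKM of Fasn was 0.101 to 0.180 in WT cultures and 0.274 to 0.448 in Nipbl+/- cultures.

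**Figure D2:**
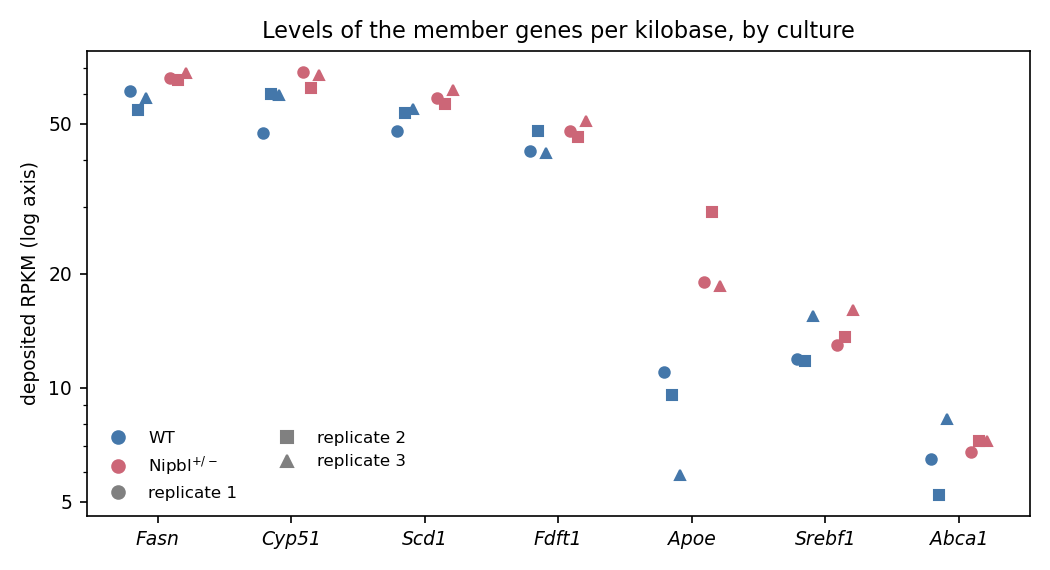
RPKM of the 7 counted members in each of the 6 cultures, on a log axis, with genes ordered by their mean over the 6 cultures. Fasn, Cyp51, Scd1 and Fdft1 lie together at the top, and only Apoe has its WT and Nipbl+/- cultures widely apart, below Srebf1 in WT cultures and above it in Nipbl+/- cultures.

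The rest of each pathway was read from 7 lists of lipid genes, 107 genes outside the members. Of these, 44 are plus-strand genes listed at 0, 5 were below the filter and 58 were tested. At the adjusted threshold 1 of the 58 was higher and 1 lower in Nipbl+/- cultures (1.72% each, against 1.04% and 0.916% of all tested genes). Their median log2 fold change was 0.01, with 31 above and 27 below 0. At an unadjusted p under 0.05 there were 10 of the 58 higher and 5 lower, beside 814 (8.98%) higher and 720 (7.95%) lower of all 9061 tested genes. The exact test of edgeR called 5 of the 58 higher and 1 lower, beside 218 (2.41%) and 213 (2.35%) of all 9061 genes. DESeq2 also called 5 higher and 1 lower, beside 235 (2.68%) and 209 (2.38%) of the 8773 genes to which it gave an adjusted p. By each of these measures the higher genes were a larger share of the lists than of all genes. The lists were chosen with earlier results of these data known, and this difference was not tested.

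None of the 11 tested genes of cholesterol synthesis passed the threshold in either direction in edgeR's quasi-likelihood test, with 2 higher at an unadjusted p under 0.05, and the exact test and DESeq2 each called 1, Lbr. Of the 11, 7 had a log2 fold change above 0 and the median was 0.12. Fdps, which makes farnesyl diphosphate and was among the most counted, was at 244.5 ± 22.6 CPM in WT cultures and 280.4 ± 20.1 CPM in Nipbl+/- cultures (log2 fold change 0.20, SE 0.08, adjusted p = 0.261). Lbr, a sterol reductase of the nuclear envelope named after its value was seen, had a log2 fold change of 0.26 (SE 0.06, adjusted p = 0.0729). These sizes are near that of Cyp51 and far under that of Apoe. Hmgcs1, Mvk, Pmvk, Idi1, Lss, Nsdhl and Dhcr7 are plus-strand genes listed at 0, so the pathway was seen only in part.

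Of the 5 tested genes that control SREBP none passed the threshold in edgeR's quasi-likelihood test. At an unadjusted p under 0.05 there was 1 higher, and the exact test and DESeq2 each called 1 higher. The most counted were the proteases that release SREBP, Mbtps1 (log2 fold change 0.05, SE 0.04) and Mbtps2 (−0.05, SE 0.05). The values of these proteases are near 0 and do not stand for the whole list. Srebf2, Scap and Insig1 were listed at 0.

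Fatty acid synthesis had 6 tested genes outside the members, with 5 above 0, a median log2 fold change of 0.07, none past the threshold, 2 higher at an unadjusted p under 0.05, and 0 called by the exact test or DESeq2. Acly, which makes cytosolic acetyl-CoA for both pathways, was at 575.7 ± 17.2 CPM in WT cultures and 619.8 ± 2.02 CPM in Nipbl+/- cultures (0.11, SE 0.04, adjusted p = 0.261), and Hsd17b12, of fatty acid elongation, had a log2 fold change of 0.02 (SE 0.07). The Acly difference was of the size of that of Fasn. Thrsp was below the filter, and Acaca, Acacb, Acss2, Scd2, Elovl1, Elovl5, Elovl6, Elovl7, Fads1, Fads3 and Mlxipl were listed at 0.

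For efflux and LXR, all 6 tested genes outside the members had a log2 fold change below 0, with a median of −0.42, none past the threshold, 1 lower at an unadjusted p under 0.05, and 0 called by the exact test or DESeq2. The most counted were the LXR target Arl4c (77.98 ± 7.16 CPM in WT, 69.7 ± 5.40 CPM in Nipbl+/- cultures, log2 fold change −0.16, SE 0.08) and the LXR-beta gene Nr1h2 (−0.08, SE 0.06). Named after their values were seen, Pltp, a phospholipid transfer protein and LXR target, had a log2 fold change of −0.35 (SE 0.10, adjusted p = 0.131) and the LXR-alpha gene Nr1h3, near 1 CPM, one of −0.52 (SE 0.28, adjusted p = 0.391). The 6 tested genes outside the members thus had the sign opposite to that of Apoe, at sizes that did not pass the test. Of all 9061 tested genes, 4675 were below 0. The values furthest from 0 had wide errors: Nr1h3 (123 counts over all cultures), Lcat (160 counts, −0.61, SE 0.37) and Ch25h (−0.48, SE 0.31). Lcat and Ch25h were also named after their values were seen, and their groups overlapped. The efflux transporter gene Abca1, a member, was at 0.05 (SE 0.13). Abcg1, Rxra, Rxrb, Lpcat3, Mylip and Cyp27a1 were listed at 0, and the Apoe cluster genes Apoc1, Apoc2 and Apoc4 were below the filter.

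Lipid uptake and lysosomal handling had 10 tested genes, 6 above and 4 below 0, with a median of 0.03 and none past the threshold, while 3 were higher at an unadjusted p under 0.05 and the exact test and DESeq2 each called 1. Lrp1, a receptor that takes up Apoe-bearing particles, was among the most counted lipid genes (log2 fold change −0.06, SE 0.10), as was Npc2, which hands cholesterol on in the lysosome (−0.04, SE 0.04). The scavenger receptor Msr1, also a macrophage marker, was the highest of the list (1.48, SE 0.30, adjusted p = 0.0511) and was named after its values were seen. Lrp8, Vldlr, Sort1 and Lpl were listed at 0.

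Of 10 tested genes of lipid storage none passed the threshold in edgeR's quasi-likelihood test, 1 was higher and 1 lower at an unadjusted p under 0.05, and the exact test and DESeq2 each called 1 higher. The median was −0.10 with 6 of 10 below 0. The lipid droplet coat gene Plin2 had a log2 fold change of −0.20 (SE 0.10) and Soat1, which esterifies cholesterol, one of 0.05 (SE 0.07). Cidec was below the filter, and Soat2, Pnpla2, Mgll, Acsl1 and Acsl3 were listed at 0.

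Fatty acid oxidation and PPAR targets held both tested lipid genes past the threshold. Acadm (chr3:153922357-153944632), the medium-chain acyl-CoA dehydrogenase of mitochondria, rose from 54.9 ± 2.25 CPM in WT cultures to 71.5 ± 3.85 CPM in Nipbl+/- cultures (log2 fold change 0.38, SE 0.06, adjusted p = 0.0234). Angptl4 (chr17:33773750-33781575), a secreted inhibitor of lipoprotein lipase, fell from 14.9 ± 2.45 to 8.78 ± 0.822 CPM (−0.76, SE 0.14, adjusted p = 0.0393). The 10 tested genes were 5 above and 5 below 0 with a median of −0.02, so the list had no common direction. Hadha, of the mitochondrial trifunctional enzyme and among its most counted genes, had a log2 fold change of 0.08 (SE 0.07). With one culture left out at a time, Acadm stayed past the threshold in 1 of 6 fits and Angptl4 in 2 of 6. Cpt1a, Slc25a20, Hadhb, Ppara, Ppard and Pparg were listed at 0.

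**Figure D3:**
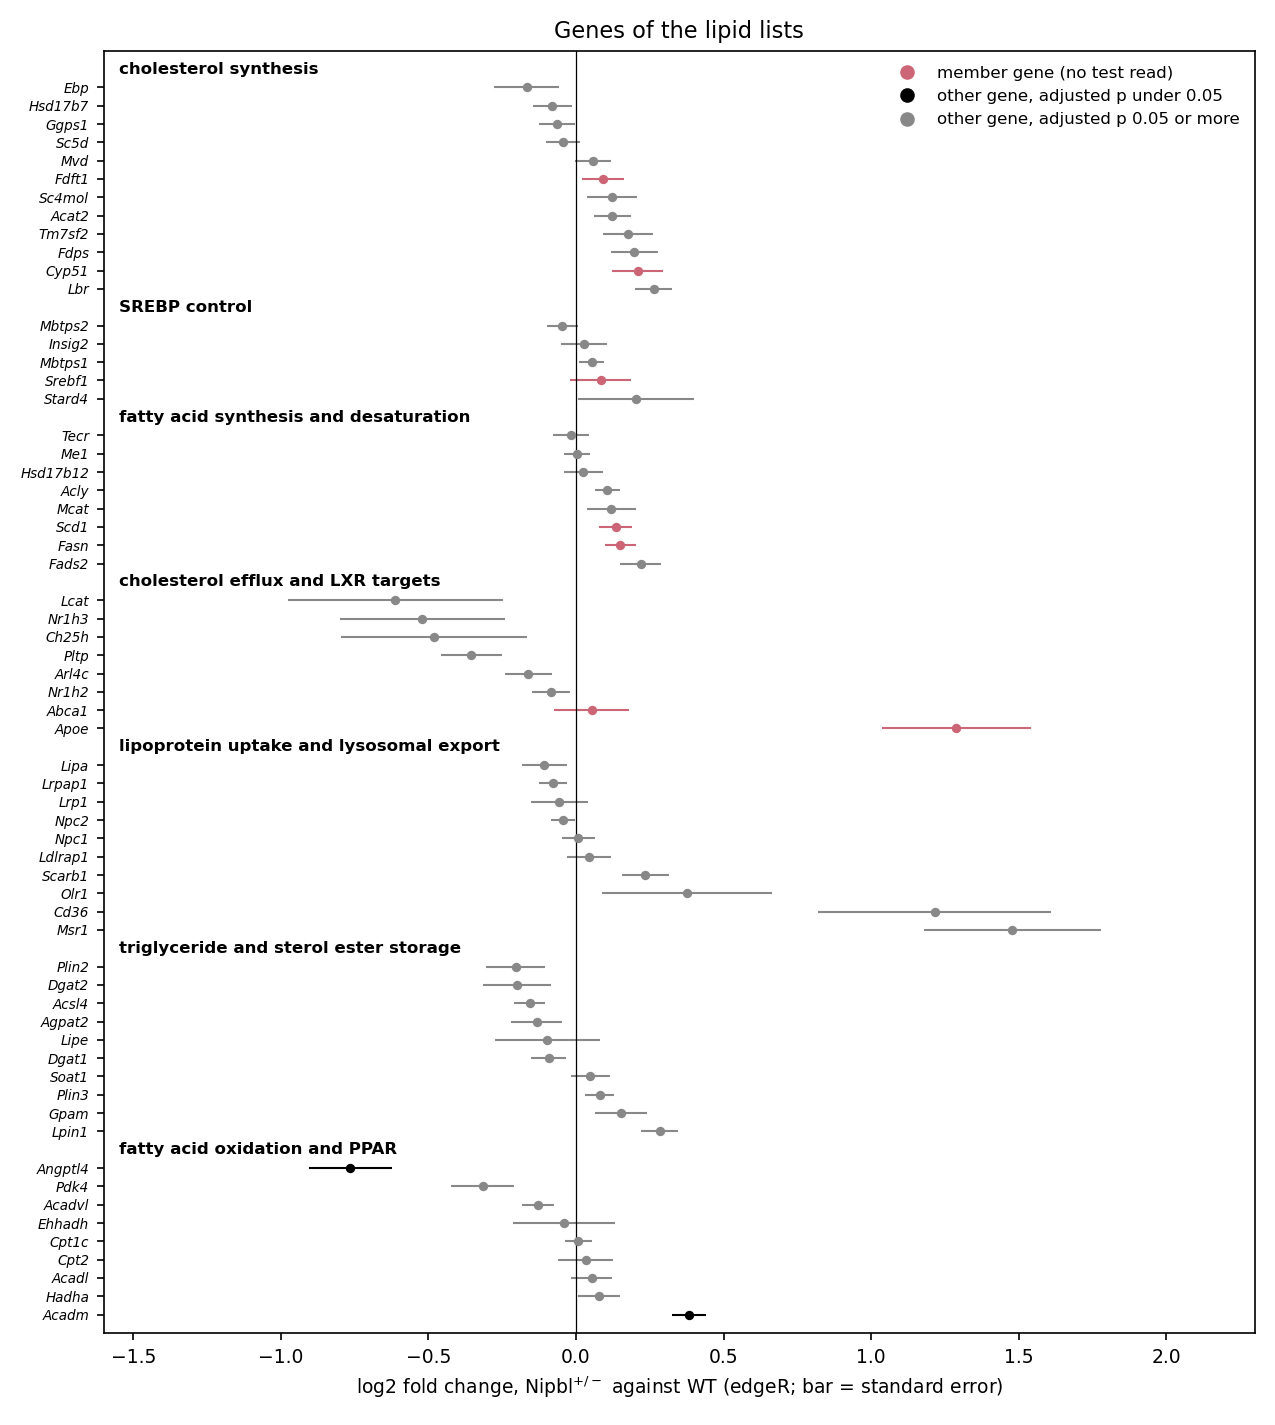
Log2 fold change (Nipbl+/- over WT, edgeR) of tested lipid genes by list (points, bar = SE), with the members in red, other genes past the adjusted threshold in black and the rest in grey. Apoe at 1.29, Msr1 at 1.48 and Cd36 at 1.22 lie far from the synthesis genes, most of which lie within 0.3 of 0. Msr1 and Cd36 were named after their values were seen. The 6 efflux and LXR genes outside the members lie below 0, as do 4675 of all 9061 tested genes.

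Apoe is made at high levels by macrophages, so macrophage markers were read in the same cultures. Of 22 markers, 9 are plus-strand genes listed at 0 (Csf1r, Emr1, Itgam, Tyrobp, Cd163, Mrc1, Mpeg1, Ctss and Laptm5) and 13 were tested. All 13 had a log2 fold change above 0, with a median of 1.04. None passed the threshold in edgeR's quasi-likelihood test, while 12 had an unadjusted p under 0.05 (8.98% of all tested genes did so in this direction), the exact test called 7 (2.41% of all) and DESeq2 called 6 (2.68%). With a replicate block 1 marker was called, C1qb (adjusted p = 0.0392 in edgeR, 0.0559 without the block).

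The summed level of the 13 markers was 92.8, 68.9 and 78.5 CPM in the WT cultures and 146, 236 and 115 CPM in the Nipbl+/- cultures. The groups did not overlap, and Nipbl+/- replicate 2 was the highest culture for both the marker sum and Apoe, while the lowest was WT replicate 2 for the sum and WT replicate 3 for Apoe. Lysozyme gene Lyz2, the most counted marker, was at 45.3, 33.4 and 33.9 CPM in WT cultures and 65.5, 112 and 52.9 CPM in Nipbl+/- cultures. The complement gene C1qb was named after its values were seen. It was at 3.04, 3.16 and 1.62 CPM in WT cultures and at 7.08, 8.45 and 4.73 CPM in Nipbl+/- cultures. Within the Nipbl+/- group its order of replicates was that of Apoe. In 8 of the 13 markers all Nipbl+/- cultures were above all WT cultures, a pattern found in 12.0% of all tested genes. Apoe CPM divided by the marker sum was 0.250, 0.293 and 0.152 in WT cultures and 0.267, 0.251 and 0.322 in Nipbl+/- cultures, ranges that overlapped. The part of macrophages in the Apoe result was not tested. In bulk RNA more cells of a type and more RNA per cell cannot be told apart.

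**Figure D4:**
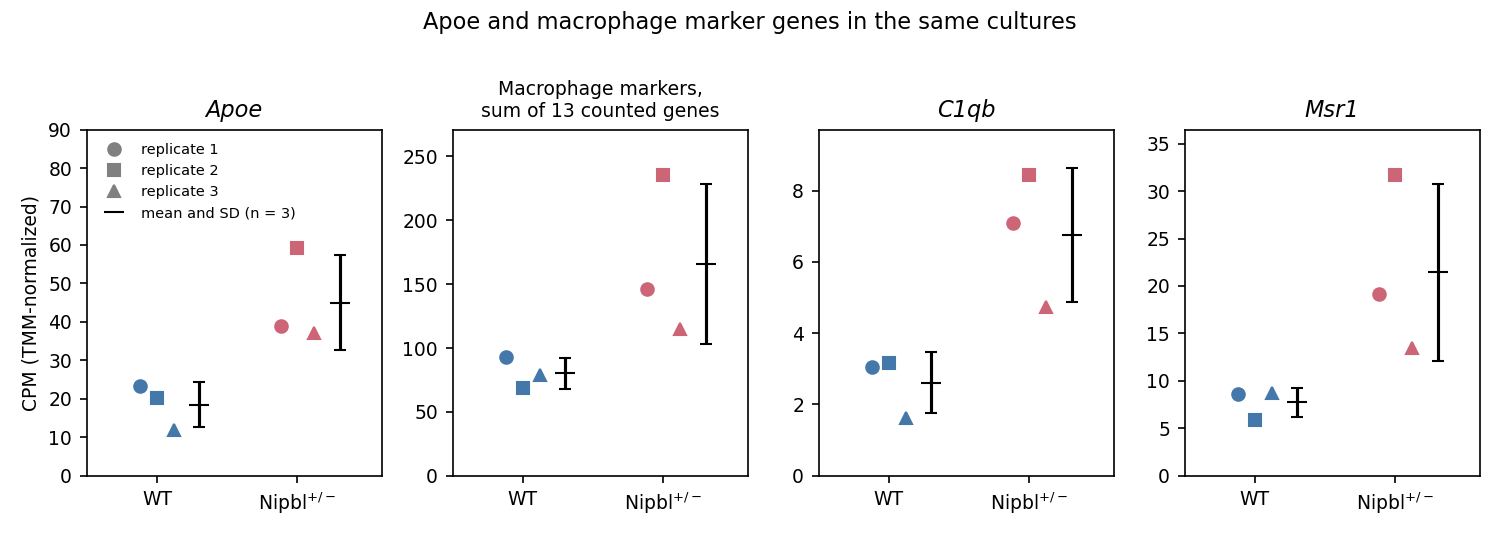
TMM-normalized CPM of Apoe, of the sum of the 13 counted macrophage markers, and of C1qb and Msr1 in each culture (points, with marker by replicate number), with mean and SD by genotype (n = 3) on axes that start at 0. In each panel the 3 Nipbl+/- cultures lie above the 3 WT cultures, and Nipbl+/- replicate 2 is the highest. C1qb and Msr1 are among the 8 of the 13 markers whose groups did not overlap in this direction.

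Markers of other cells that make Apoe or store lipid were listed at 0 or had few counts, except Fabp4. Of 8 hepatocyte markers, 6 were listed at 0 on the plus strand, Fgb had 1 count over all cultures and Serpina1a had 0. Of 8 adipocyte markers, 5 were listed at 0 and Plin1 and Cidec had 1 and 0 counts. The fatty acid carrier Fabp4, the remaining adipocyte marker, was at 19.1, 12.2 and 16.5 CPM in WT cultures and at 11.9, 8.29 and 9.21 CPM in Nipbl+/- cultures, the opposite direction to Apoe (log2 fold change −0.70, adjusted p = 0.105 by edgeR's quasi-likelihood test, 0.0216 by its exact test and 0.00786 by DESeq2). Its part in the lipid gene values was not tested. Among glial markers, Sox10 had 26, Gfap 16 and Erbb3 188 counts over the 6 cultures, and Erbb3, the only one tested, had a log2 fold change of 0.19 (SE 0.35).

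The tested genes around Apoe on the chromosome were read as a description. Apoe was chosen by its value in this contrast and ranks 27 of the 9061 tested genes from the highest log2 fold change. Genes from almost any place would thus have smaller values, so nothing is read from that difference. Within 150 kb of the gene lie 19 annotated genes, of which 5 on the plus strand were listed at 0, 4 (Apoc1, Apoc2, Apoc4 and Cblc) were below the filter and 10 were tested. None of the 10 passed the threshold in edgeR's quasi-likelihood test, the exact test or DESeq2, and 2 had an unadjusted p under 0.05. Of all tested genes 1.95% passed in the quasi-likelihood test, and 8.98% as higher and 7.95% as lower had an unadjusted p under 0.05. With 10 genes, counts this small do not set the surroundings of Apoe apart from other genes. Tomm40, a mitochondrial import gene 2.1 kb away, had a log2 fold change of 0.05 (SE 0.06), Clptm1 one of 0.00 (SE 0.05) and the cell adhesion gene Pvrl2 one of 0.09 (SE 0.10). The largest were the laminin receptor gene Bcam, 57.0 kb away (0.51, SE 0.14, adjusted p = 0.118), and the NF-kappa-B cofactor gene Bcl3, 109.3 kb away (0.48, SE 0.19, adjusted p = 0.251). Relb, Clasrp, Gemin7 and Ppp1r37 lay between −0.04 and 0.08, and AC149052.1 was at −0.22 (SE 0.24). Apoc2, the nearest apolipoprotein gene with more than 1 count, had 0 to 1 counts in WT cultures and 3 to 5 counts in Nipbl+/- cultures, too few for a level.

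**Figure D5:**
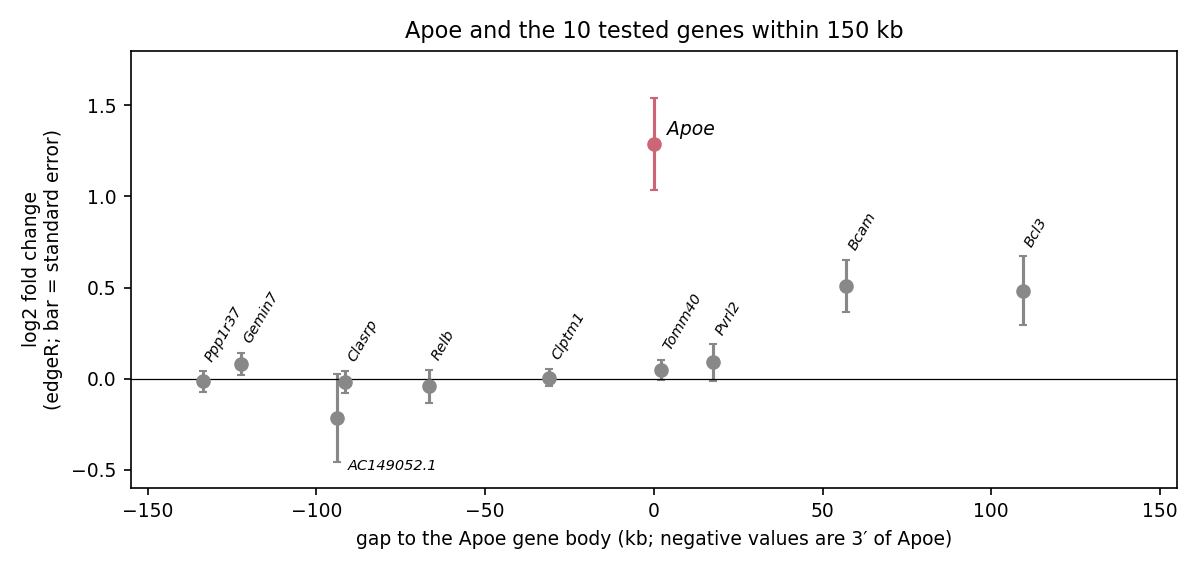
Log2 fold change (Nipbl+/- over WT, edgeR, bar = SE) of Apoe and the 10 tested genes within 150 kb against the gap to the Apoe gene in kb, with negative distances on the 3′ side. Apoe, which was chosen by its value in this contrast, lies at 1.29 and its neighbours between −0.22 and 0.51.

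Genes with a pattern like that of Apoe were ranked by Pearson correlation of log2 CPM over the 6 cultures. These cultures are of both genotypes, so genes with a genotype step rank highly. Of 9060 genes 131 had r above 0.9, led by Gatm (0.988), Gm12187 (0.987), Spty2d1 (0.986), H3f3b (0.985) and Cd1d1 (0.984). None of these is a lipid synthesis gene of the lists, and the log2 fold change was 0.93 for Gatm, the creatine synthesis gene, 0.51 for Cd1d1, which presents lipid antigens, 0.17 for the histone gene H3f3b and 0.09 for Spty2d1. On deviations from the genotype means 172 genes had r above 0.9, led by Mapkapk5 (0.997), Rnf26 (0.996), Adam1a (0.995) and Ndufb10 (0.993). With 6 cultures, and fewer free values once the genotype means are taken off, many genes can reach a high r without any link to Apoe. How many would do so was not worked out. Such values, and any turn of sign between the measures, are a description of these libraries. Over the same 6 cultures the correlation with Apoe was 0.787 for Fasn, 0.528 for Fdft1, 0.485 for Scd1, 0.407 for Cyp51, −0.07 for Abca1 and −0.09 for Srebf1. On deviations from the genotype means it was 0.245 for Fasn, 0.206 for Fdft1, −0.68 for Scd1, −0.58 for Cyp51, −0.51 for Abca1 and −0.77 for Srebf1, so the sign for Scd1 and Cyp51 turned with the measure. The 13 macrophage markers ran from 0.495 (Aif1) to 0.977 (C1qb) on log2 CPM and from −0.46 (Cd14) to 0.903 (C1qb) on the deviations. The markers at these ends were named after their values were seen.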

How the data were processed

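Gene counts of 6 MEF cultures, 3 WT and 3 Nipbl+/-, were used. The authors depleted ribosomal RNA, aligned reads to mm10 with TopHat2 2.0.10 (per the submitters' processing notes) using Ensembl 72 gene models, and deposited for each culture an unnormalized read count per gene. The authors also deposited RPKM values, in which counts are divided by library size and gene length. The counting tool is not given in the sources used here. All 19214 plus-strand genes are at 0 in every culture, and nothing is said of them.

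Low counts were removed by filterByExpr (minimum count 10), and the remaining genes were normalized by TMM and tested with edgeR 4.0.16 (quasi-likelihood test, no covariates) in R 4.3.3. P-values were adjusted by Benjamini-Hochberg over all 9061 tested genes, with a threshold of 0.05. CPM are TMM-normalized, and log2 CPM used a prior count of 2. The steps were tested on simulated data. Alternatives were edgeR's exact test, DESeq2 1.42.0, other scalings and filters, a replicate block and leaving out each culture.

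The genes named are the 8 members, Nipbl, in each list the genes past the threshold, the 2 most counted tested genes and those at 0, tested genes within 150 kb of Apoe, the 5 genes most correlated with it by each measure, and marker genes that are most counted or at 0. Genes outside this rule are said to be named after their values were seen. The members and lists were chosen with earlier results of these data known. Ratios of Apoe to macrophage markers and the sex-linked genes were added after the values were seen. Overlaps used GENCODE M21, and promoter windows were those of RefSeq. A few genes that this rule names are not reported here.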

Additional observations from a re-analysis of the deposited data

How the results depend on the processing

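Apoe kept its direction in all 14 alternatives, with a log2 fold change of 1.04 to 1.48. By edgeR's quasi-likelihood fit its adjusted p of 0.0468 became 0.0575 to 0.119 with 1 culture left out, over the threshold in 6 of 6 fits. Acadm and Angptl4 also kept theirs in 13 of 13. Of the other members, Abca1 and Srebf1 changed sign when 1 culture was left out, as given with their values, and the rest did not. Counts of genes past the threshold moved more. All genes higher in Nipbl+/- MEFs were 94, and 235 with DESeq2, 218 with edgeR's exact test, 142 with library size alone, 173 with no filter on low counts and 1 (without Nipbl+/- replicate 1) to 130 (without WT replicate 2) with 1 culture left out. Lower genes were 83, and 209, 213, 70, 152 and 2 to 138 under the same alternatives, with the same cultures at the ends. Lipid genes outside the members were 1 higher, and 5, 5, 3, 4 and 0 to 3, with 0 without Nipbl+/- replicate 1, WT replicate 1 or WT replicate 3, and 3 without WT replicate 2. They were 1 lower, and 0 to 1 with 1 culture left out, with 0 without WT replicate 1 or any 1 of the Nipbl+/- cultures. With the replicate block, 34 genes were higher and 52 lower, and 0 lipid genes outside the members were called (adjusted p = 0.0590 for Acadm and 0.0628 for Angptl4). The deviations of same-numbered cultures from their genotype means had correlations of −0.06, −0.04 and −0.14. With 3 cultures per genotype such values cannot show whether same-numbered cultures share more than a number. The median SE was 0.101 on the log2 scale, with 3 cultures per genotype.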
